A study of Mus musculus with 2 samples.

Results

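Tcf1 binding was examined at 10 cytokine receptor genes of naive CD8+ T cells, namely Il7r, Il2ra, Il2rb, Il2rg, Il15ra, Il4ra, Il21r, Il6ra, Il6st and Il18r1. A binding peak was assigned to a receptor gene when its summit, the base with the most fragments, lay in the gene body or within 50 kb of either end in the mm9 genome. By this rule 77 of the 22286 deposited peaks were members, and 66 of them were high-confidence peaks, of 19042 in all. High-confidence peaks met the study's criteria of at least 4-fold enrichment, p under 1e-05 and q under 0.05. Peaks were assigned to the genes by position alone, while the 10 genes themselves were picked with earlier results of these data known, so the comparisons with all genes below are descriptions.

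The peaks came from chromatin immunoprecipitation with sequencing (ChIP-seq), in which a rabbit antiserum raised against full-length Tcf1 pulled down crosslinked chromatin of splenic CD8+ T cells sorted as GFP+ TCRbeta+ CD62Lhi CD44lo-med. There was 1 WT library, labelled wild type, and 1 Tcf1-deficient library, which the authors used as the control in peak calling. The series' design names hCD2-Cre and Rosa26-lsl-GFP, a Cre-activated marker, for both groups, with wild-type Tcf1 and Lef1 in WT cells and floxed alleles of both in the other group, and the genotype field of the control reads Tcf1-/-Lef1-/-. The study's methods instead describe Cd4-Cre+ Tcf7 fl/fl mice for this control, so whether its cells also lacked Lef1 was not settled between these sources. The labels give neither the age nor the sex of the mice. The study's methods give one age range for all mice analysed, the use of both sexes and a C57BL/6 background, but not how many mice went into a library. A peak list holds no expression values, so the labelled cell type could not be compared with marker genes, and the deletion of Tcf7 (the gene encoding Tcf1) was not analysed here. With 1 library per group there was no replicate check, and the intervals below are exact Poisson or exact binomial 95% intervals that cover counting error only.

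Tcf1 and Lef1 are DNA-binding proteins of the HMG-box family that recognise a short core sequence and are known for their roles in T cell development and in CD8+ T cell identity. Naive CD8+ T cells persist in the spleen on signals from interleukin-7 (IL-7) and interleukin-15 (IL-15). The receptors are shared in parts: Il2rg encodes the common gamma chain that pairs with the chains for IL-2, IL-4, IL-7, IL-15 and IL-21, Il2rb serves both IL-2 and IL-15, and Il6st encodes gp130, the signalling chain of the IL-6 receptor and its relatives. Il18r1 belongs to the IL-1 receptor family and is best known in memory and activated T cells.

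The sequences under the strongest peaks show how varied the bound DNA was. Each line below gives 101 bp of the mm9 + strand centred on a summit. Capitals mark a Tcf/Lef core (ATCAAAG, or its second form TTCAAAG, on either strand, where CTTTGAT and CTTTGAA are their reverse complements) or the Runx core TGTGGTT, and a line without capitals holds none of the 6 motifs that were searched in these bases. The first line is the strongest peak of all 66, the next 5 are the other peaks with at least 40-fold enrichment, and the last 5 are the strongest peaks of Il6st and Il2ra, the second-strongest peak of Il7r, the peak with 2 copies of the core, and a weak peak whose core sits on the summit.
Il18r1 intron 3, chr1:40530679-40530779: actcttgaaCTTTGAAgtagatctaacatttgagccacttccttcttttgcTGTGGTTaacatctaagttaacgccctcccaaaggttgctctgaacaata
Il7r, 45.3 kb upstream, chr15:9504834-9504934: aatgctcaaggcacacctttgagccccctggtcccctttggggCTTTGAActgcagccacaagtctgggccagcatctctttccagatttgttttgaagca
Il21r intron 1, chr7:132751051-132751151: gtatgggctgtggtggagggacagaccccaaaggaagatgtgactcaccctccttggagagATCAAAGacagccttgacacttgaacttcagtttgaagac
Il21r, 14.6 kb upstream, chr7:132732340-132732440: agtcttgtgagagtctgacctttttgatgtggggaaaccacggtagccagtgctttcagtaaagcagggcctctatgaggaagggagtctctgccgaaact
Il2rb, 20.8 kb upstream, chr15:78346237-78346337: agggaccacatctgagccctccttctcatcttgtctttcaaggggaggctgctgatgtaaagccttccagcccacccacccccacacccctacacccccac
Il6ra, 5.02 kb past the 3′ end, chr3:89668175-89668275: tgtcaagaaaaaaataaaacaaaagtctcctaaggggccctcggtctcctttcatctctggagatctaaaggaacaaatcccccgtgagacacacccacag
Il6st, 47.4 kb upstream, chr13:113217786-113217886: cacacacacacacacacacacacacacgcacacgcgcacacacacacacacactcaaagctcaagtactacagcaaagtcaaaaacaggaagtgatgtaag
Il2ra intron 1, chr2:11575099-11575199: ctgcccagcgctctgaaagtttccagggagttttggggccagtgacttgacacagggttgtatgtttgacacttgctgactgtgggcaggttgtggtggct
Il7r, 3.67 kb upstream, chr15:9463249-9463349: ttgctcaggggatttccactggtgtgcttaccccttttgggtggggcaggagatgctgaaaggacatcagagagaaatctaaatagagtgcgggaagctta
Il2ra, 25.8 kb upstream, chr2:11538559-11538659: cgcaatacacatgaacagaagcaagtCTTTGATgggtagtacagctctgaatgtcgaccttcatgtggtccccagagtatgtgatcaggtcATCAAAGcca
Il2ra intron 1, 15.1 kb from the start, chr2:11579435-11579535: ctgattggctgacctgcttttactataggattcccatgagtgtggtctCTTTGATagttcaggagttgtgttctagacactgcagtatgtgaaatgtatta
The strongest Il6st peak opened with a run of alternating c and a, a simple repeat, and whether reads aligned to it uniquely was not tested.

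Each peak is described by its pileup, which counts the WT fragments that cover the summit, and by its fold enrichment, the pileup plus 1 divided by the local level of the Tcf1-deficient library plus 1. The lowest level the control could take anywhere was 5.42 fragments. It sat at this floor in 58 of the 66 high-confidence member peaks (87.9%), beside 86.3% of all high-confidence peaks, and its highest value among them was 8.02, in intron 1 of Il6st. The order of the member peaks by fold enrichment therefore followed the WT pileup closely. At the floor a pileup of 25 was needed to reach a fold enrichment of 4.

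Each of the 10 receptor genes had at least 1 high-confidence Tcf1 peak in its window, where 66.5% of 22350 protein-coding genes had one. The 10 genes had a median of 8 peaks, a protein-coding gene had a median of 1, and the fewest were 4, at Il15ra. Il6st and Il21r had 10 peaks each, a number reached by 2.0% of protein-coding genes. Il2ra and Il4ra had 9 (3.06% of genes had as many), Il2rb and Il6ra had 8 (4.64%), Il7r had 7 (7.10%) and Il18r1 had 6 (10.6%). Il2rg had 5, which 15.9% reached, and 23.5% had as many as the 4 at Il15ra. Among genes of the same chromosome the share was lower for Il2rg (2.15% of the 932 on chromosome X) and higher for Il7r (11.4%) and Il2rb (8.16%, both of 797 on chromosome 15), and it ranged from 1.5% at Il6st to 18.6% at Il15ra over the other 7 genes. The background includes genes that T cells do not transcribe, and long genes have longer windows.

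**Figure D1:**
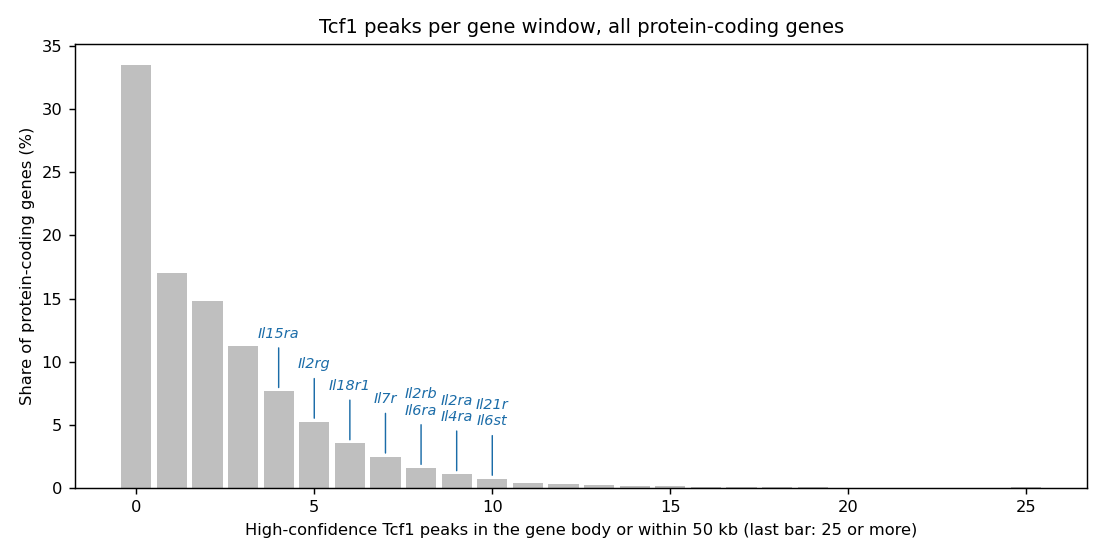
Share of all protein-coding genes (y axis, percent) by the number of high-confidence Tcf1 peaks in the gene body or within 50 kb (x axis, the last bar pooling 25 or more). The 10 receptor genes stand at 4 to 10 peaks, to the right of the bars at 0 and 1 that hold 33.5% and 17.0% of genes.

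Counted per length, the joined windows of the 10 genes spanned 1126 kb and held 5.86 high-confidence peaks per 100 kb (95% interval 4.53 to 7.46). Single genes ranged from 3.11 per 100 kb at Il15ra to 7.68 at Il21r, and a protein-coding gene had a median of 0.973. In 2 places a pair of member genes are neighbours and share peaks: 3 high-confidence peaks lay in the windows of both Il2ra and Il15ra on chromosome 2, and 7 in those of both Il4ra and Il21r on chromosome 7. Each is counted once in the total of 66, and the 10 genes form 8 separate loci. The other 11 member peaks fell under the fold minimum, at 2.86 to 3.90, while the weakest high-confidence members stood at 4.36. The pass rate of 66 of 77 lay beside 85.4% of all deposited peaks. Of the peaks under the minimum, 9 were within 1 Poisson SD of it, as were 9 of those above it.

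**Figure D2:**
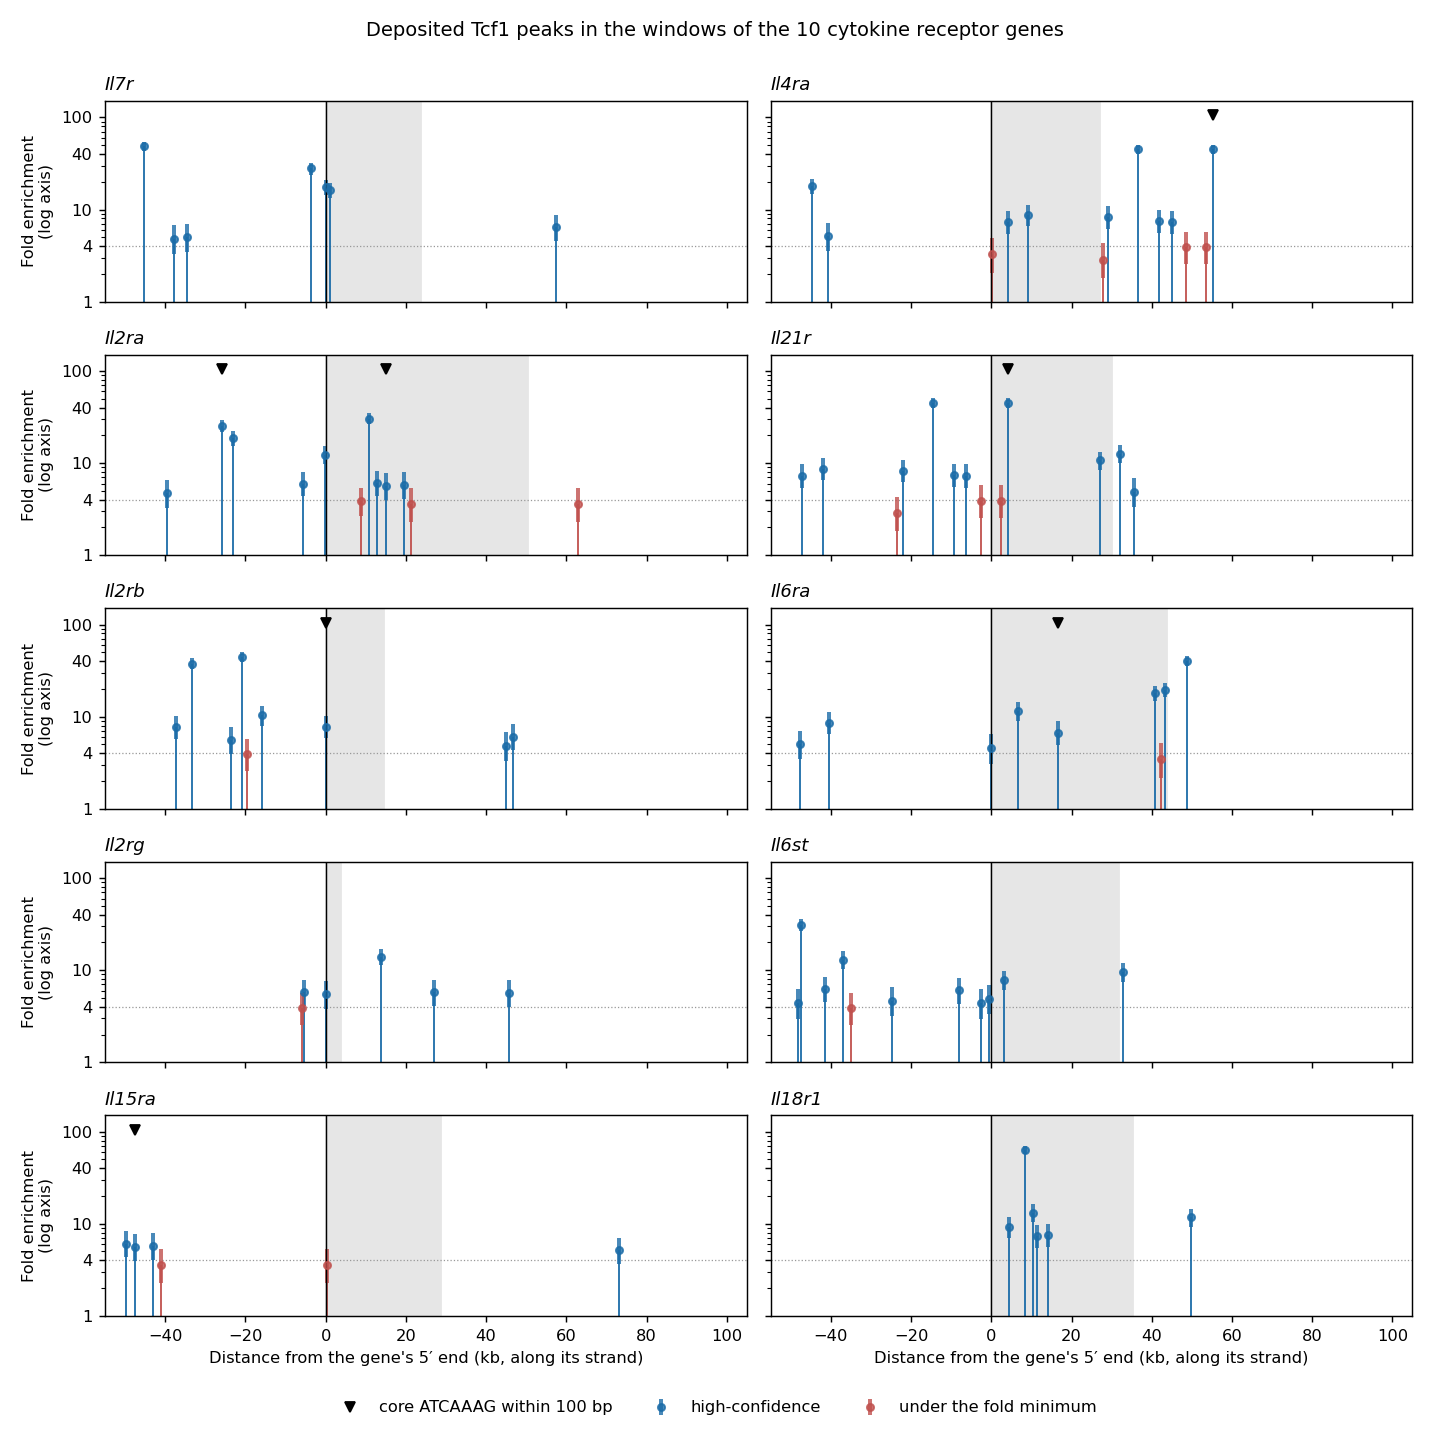
Fold enrichment (y axis, log scale, with 95% Poisson intervals of the pileup) of every deposited Tcf1 peak in the window of each receptor gene, by distance from the 5′ end of the gene in kb along its strand (x axis, the gene body in grey, the dotted line at 4). The tallest peaks of Il7r, Il2rb and Il6st lie upstream of the gene, that of Il18r1 lies inside it, and Il15ra has no high-confidence peak in its gene body.

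The median fold enrichment of the 66 peaks was 7.71 (95% interval from order statistics 6.23 to 10.7), and that of all high-confidence peaks was 6.86. The member peaks differed more at the upper end. A fold enrichment of at least 20 was found in 11 of 66 (16.7%) beside 7.98% of all high-confidence peaks, and at least 40 in 6 of 66 (9.09%) beside 1.23%. Of the 10 genes, 8 had a peak of at least 20-fold in the window, against 12.2% of protein-coding genes, with Il2rg and Il15ra the exceptions. A peak of at least 40-fold was in the window of 6, against 1.93% of protein-coding genes, and 2 of the 6, Il4ra and Il21r, share theirs. The peaks of one locus share their chromatin and library, so these are counts of peaks and not of independent loci.

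**Figure D3:**
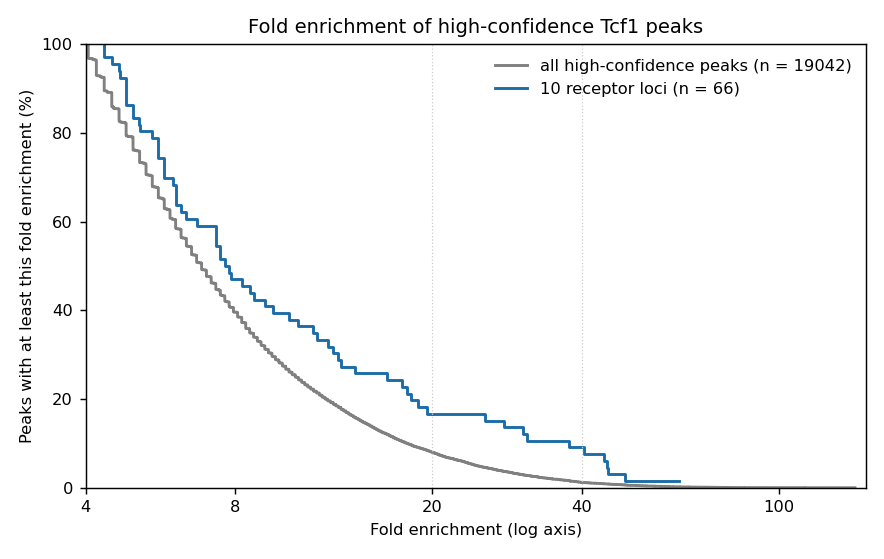
Share of high-confidence peaks (y axis, percent) with at least a given fold enrichment (x axis, log scale), for the 66 peaks at the receptor loci and for all 19042. The curve of the receptor loci lies above the other at 20-fold (16.7% and 7.98%) and at 40-fold (9.09% and 1.23%).

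Ordered by the fold enrichment of the strongest peak, the genes ran from Il18r1 (62.9), Il7r (48.9), Il4ra and Il21r (45.2, the same peak), Il2rb (44.4) and Il6ra (40.5) to Il6st (31.0), Il2ra (30.4), Il2rg (14.0) and Il15ra (6.08). Neighbours in this order had overlapping intervals of the pileup except at 4 steps, from Il18r1 to Il7r, from Il6ra to Il6st (narrowly, with bounds that both round to 228 fragments), from Il2ra to Il2rg and from Il2rg to Il15ra. Peaks of at least 40-fold were thus not ordered among themselves below Il18r1. The order also depended on the window: with 100 kb on each side, an alternative added after the values were seen, Il6st (90.5) and Il4ra (70.7) stood above Il18r1, and Il15ra reached 30.4.

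Il7r (ENSMUSG00000003882, chr15:9435916-9459631, - strand) encodes the alpha chain of the IL-7 receptor, through which naive T cells receive survival signals. All 7 of its deposited peaks were high-confidence. The strongest, chr15:9504488-9505273, lay 45.3 kb upstream with a pileup of 313 fragments (279 to 350) and a fold enrichment of 48.9, which put it in place 122 of all high-confidence peaks. A second upstream peak, 3.67 kb from the start site, had 178 fragments and a fold enrichment of 27.9. At the promoter the summit lay 15 bp from an annotated start site with 121 fragments and 17.4-fold enrichment, and intron 1 held another peak of 103 fragments (16.2). The Il7r promoter peak was the strongest among those at the receptors' own start sites. The remaining peaks, 2 further upstream (4.99 and 4.83) and 1 at 33.8 kb past the 3′ end (6.39, nearest to the start of Capsl), were close to the lower end of the range.

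Il2ra (ENSMUSG00000026770, chr2:11564419-11614818, + strand) encodes CD25, the inducible chain that makes the IL-2 receptor high-affinity. Its 9 high-confidence peaks fell on both sides of the start site. Upstream peaks at 25.8 and 23.0 kb had 179 and 119 fragments (25.5-fold and 18.7-fold), and both were nearer to the start of the predicted gene Gm17355 than to that of Il2ra. The promoter peak, 42 bp upstream of the start site, had 78 fragments and a fold enrichment of 12.3. Intron 1 held 4 high-confidence peaks, and the first of them, 10.7 kb into the gene, was the strongest of the locus with 194 fragments (168 to 223) and a fold enrichment of 30.4. The other 3 had 35 to 38 fragments. They stood at 12.7, 15.1 and 19.5 kb, with fold enrichments of 6.08, 5.61 and 5.76, and their intervals overlapped one another.

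Il15ra (ENSMUSG00000023206, chr2:11626914-11655613, + strand), which encodes the chain that binds IL-15 and presents it to neighbouring cells, had no high-confidence peak in its gene body or at its start site, whereas each of the other 9 genes had at least 1 in the gene body. A deposited peak 18 bp from an own start site had 22 fragments and a fold enrichment of 3.58 (2.30 to 5.35), under the minimum but with an interval that includes it. Of its 4 high-confidence peaks, 3 were the weaker intron 1 peaks of Il2ra, 43.0 to 49.8 kb upstream, and the fourth lay at the shared promoter of Ankrd16 and Fbxo18, with a fold enrichment of 5.13. The strongest Il2ra intron peak (30.4) missed the window of Il15ra at 51.8 kb, so the low place of Il15ra in the order depends on where the window ends.

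Il2rb (ENSMUSG00000068227, chr15:78310983-78325496, - strand) encodes CD122, the signalling chain shared by IL-2 and IL-15. Its strongest peak, chr15:78345881-78346751, was 20.8 kb upstream with 284 fragments (252 to 319) and a fold enrichment of 44.4. A second strong peak of 241 fragments (37.7) was 33.2 kb upstream, at the promoter of C1qtnf6, and the summit of the first was also nearer to the C1qtnf6 start than to that of Il2rb. The Il2rb promoter peak was far lower, with 49 fragments and a fold enrichment of 7.79 (5.80 to 10.2), 165 bp inside the gene. A peak 15.9 kb upstream reached 10.3-fold, and 2 weak peaks past the 3′ end (6.08 and 4.83) lay in introns of Tmprss6.

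Il2rg (ENSMUSG00000031304, chrX:98459717-98463594, - strand), the common gamma chain gene, is the shortest of the 10 at 3.88 kb. Its promoter peak had a summit 2 bp from the start site, 34 fragments and a fold enrichment of 5.45. The highest peak of its window, with 89 fragments and a fold enrichment of 14.0, was at the promoter of Foxo4, 9.94 kb past the 3′ end. Peaks at the promoters of Snx12 (5.61) and Med12 (5.76) and an intergenic peak (5.76) were as low as that of Il2rg itself. Thus 1 of the 5 peaks had the start of Il2rg as the nearest.

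Il4ra (ENSMUSG00000030748, chr7:132695785-132722986, + strand), the IL-4 receptor alpha chain, and Il21r (ENSMUSG00000030745, chr7:132746943-132777084, + strand), the chain for IL-21, lie in tandem and had 12 high-confidence peaks together. The 2 strongest peaks of the locus were about equal. One, chr7:132750616-132752106, was in intron 1 of Il21r, 4.16 kb into the gene, with 289 fragments (257 to 324, 45.2-fold), and the other lay between the genes, 14.6 kb upstream of Il21r and 9.40 kb past the end of Il4ra, with 288 fragments (45.0-fold). Neither gene had a high-confidence peak at an own start site. At Il4ra a deposited promoter peak reached 20 fragments and a fold enrichment of 3.27, and at Il21r no listed peak had its summit there. Inside Il4ra, intron 1 held 2 peaks of 7.32-fold and 8.73-fold. Beyond Il21r, a peak 2.05 kb past the 3′ end had a fold enrichment of 12.6 and intron 7 held one of 10.7. At the other end of the locus, 44.8 kb upstream of Il4ra, a peak of 113 fragments (17.8) was nearest to Nsmce1.

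Il6ra (ENSMUSG00000027947, chr3:89673246-89717084, - strand) encodes the chain that binds IL-6. Of its 8 high-confidence peaks, the 3 strongest lay at the 3′ end. The first of them, chr3:89667108-89668489, lay 5.02 kb past the end of the gene with 259 fragments (228 to 293, 40.5-fold). The next, in a noncoding part of an exon at that end, had 124 fragments (19.5-fold), and intron 9 held one of 115 fragments (18.1-fold). The promoter peak, 25 bp from the start site, had 28 fragments and a fold enrichment of 4.52 (3.05 to 6.46), with a lower bound under the minimum. Intron 1 held 2 peaks, of 11.5-fold and 6.70-fold, and 2 peaks lay at promoters of Atp8b2 (8.57 and 4.99).

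Il6st (ENSMUSG00000021756, chr13:113265216-113297068, + strand) encodes gp130. Of its 10 high-confidence peaks, 8 were upstream, and each of the 10 was nearest to the start of Il6st. The strongest, 47.4 kb upstream, had 198 fragments (171 to 228) and a fold enrichment of 31.0. It was followed by a peak at 36.9 kb (12.9) and by one 1.10 kb past the 3′ end (9.55). The promoter peak, 480 bp upstream, had 30 fragments and a fold enrichment of 4.83. An intron 1 peak of 70 fragments gave a fold enrichment of 7.87, since the control level there was the 8.02 fragments given above. A still stronger peak lay just outside the window, 50.1 kb upstream, with 580 fragments and a fold enrichment of 90.5, and was not counted.

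Il18r1 (ENSMUSG00000026070, chr1:40522397-40557699, + strand) encodes the chain that binds IL-18, a cytokine that acts with IL-12 on interferon production. Of its 6 high-confidence peaks, 5 were inside the gene body, between 4.53 and 14.1 kb from its start, and none was upstream, where each of the other 9 genes had at least 1. The peak in intron 3, chr1:40530367-40531128, had 403 fragments (365 to 444) and a fold enrichment of 62.9 (57.0 to 69.4), and held place 40 among all 19042 high-confidence peaks (0.215% had as high a value). It was flanked in introns 2, 4 and 5 by peaks of 9.19-fold, 13.1-fold, 7.32-fold and 7.48-fold. No listed peak had its summit at a start site of Il18r1, and the sixth peak was at the promoter of Il18rap, the partner chain of the IL-18 receptor, 14.6 kb past the end of Il18r1, with 74 fragments and a fold enrichment of 11.7.

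Across the 10 genes, 6 had a high-confidence peak within 1 kb of an own start site, where 32.8% of protein-coding genes did. These were Il7r (17.4), Il2ra (12.3), Il2rb (7.79), Il2rg (5.45), Il6st (4.83) and Il6ra (4.52), and at each gene with a promoter peak another peak in the window was stronger. Promoters held 15 of the 66 peaks (22.7%) beside 39.6% of all high-confidence peaks, and 9 of those 15 were promoters of neighbouring genes. Gene bodies held 21 (31.8%, beside 33.0%) and intergenic sequence 30 (45.5%, beside 27.4%). Outside promoters the median fold enrichment was 7.87 in 51 member peaks and 7.17 in 11495 of all, and at least 20-fold was reached by 10 (19.6%) and by 10.5%. A window drawn around a gene partly sets how much promoter and intergenic sequence is sampled, and like windows of other genes were not compared for placement.

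The member peaks lay close to one another. Another high-confidence summit was within 10 kb of 55 of the 66 (83.3%, 95% interval 72.1 to 91.4), beside 49.1% of all high-confidence summits. Outside promoters the shares were 90.2% and 55.4%. More peaks per 100 kb place summits closer together, and these windows held more than those of most genes. No background of equal density was compared, so closeness is not a result separate from the number of peaks. The windows hold other genes as well: 44 of the 66 summits (66.7%) had the start of a receptor gene as the nearest protein-coding start site, and the other 22 were nearest to 13 other genes, of which C1qtnf6 had 4. A nearest start does not say which gene a site acts on. Member peaks had a median width of 548 bp and a median GC content of 49.5%, and all high-confidence peaks 484 bp and 51.7%.

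In all, 6 short motifs were searched within 100 bp of each summit on both strands. They were the Tcf/Lef core ATCAAAG, its second form TTCAAAG, the ETS core CGGAAGT, the Runx core TGTGGTT, the Foxo sequence TGTTTAC and the STAT sequence TTCNNNGAA, whose factors act downstream of cytokine receptors. A match is a description of the letters and not a bound site. ATCAAAG was found in 5 of 66 member peaks (7.58%, 2.51 to 16.8) beside 10.2% of all high-confidence peaks. It was in 1.52% of windows 2 kb away from the member summits and in 3.31% of those beside all peaks. Outside promoters the shares were 7.84% of 51 and 13.5%. A search of the whole peak in place of the summit window found it in 13.6% of the 66. The share of all peaks was not computed for that search, so 13.6% cannot be set against 10.2% or 13.5%. The 5 were the Il21r intron 1 peak, 14 bp from the summit, the peak 25.8 kb upstream of Il2ra with 2 copies, the Il2ra intron 1 peak at 15.1 kb, 1 bp from the summit, an Il6ra intron 1 peak (19 bp) and the Il2rb promoter peak (86 bp). They gave a core peak to the windows of 6 of the 10 genes, since windows overlap, where 15.6% of protein-coding genes had one. These windows also held more peaks, with a median of 8 beside 1. Per peak the core was not more frequent (7.58% beside 10.2%), so the count of genes does not show an excess of cores. TTCAAAG was found in 4 (6.06%) beside 10.7%, and outside promoters in 5.88% beside 13.9%. The windows 2 kb away held it in 6.82% of cases at the members and in 4.72% at all peaks. The 4 included the strongest peaks of Il7r, 4 bp from the summit, and of Il18r1, 38 bp away.

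The Runx core was the most frequent of the 6 at these loci, in 14 of 66 (21.2%, 12.1 to 33.0) beside 15.5% of all high-confidence peaks, and outside promoters the shares were 23.5% and 21.7%. In the windows 2 kb away the shares were 8.33% at the members and 5.24% at all peaks. It lay 4 bp from the summit of the Il18r1 intron 3 peak and 9 bp from that of the Il7r promoter, and 4 of the 6 Il18r1 peaks had it. Each of the 3 remaining motifs was found in at most 5 of the 66 peaks. CGGAAGT occurred in 2 peaks (3.03%, beside 6.93%), TGTTTAC in 3 (4.55%, beside 3.18%) and TTCNNNGAA in 5 (7.58%, beside 6.77%, with 7.58% in the windows 2 kb away at the members and 6.12% at all peaks). All of these intervals include the share of all high-confidence peaks, so with 66 peaks no difference in motif content was detectable.

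**Figure D4:**
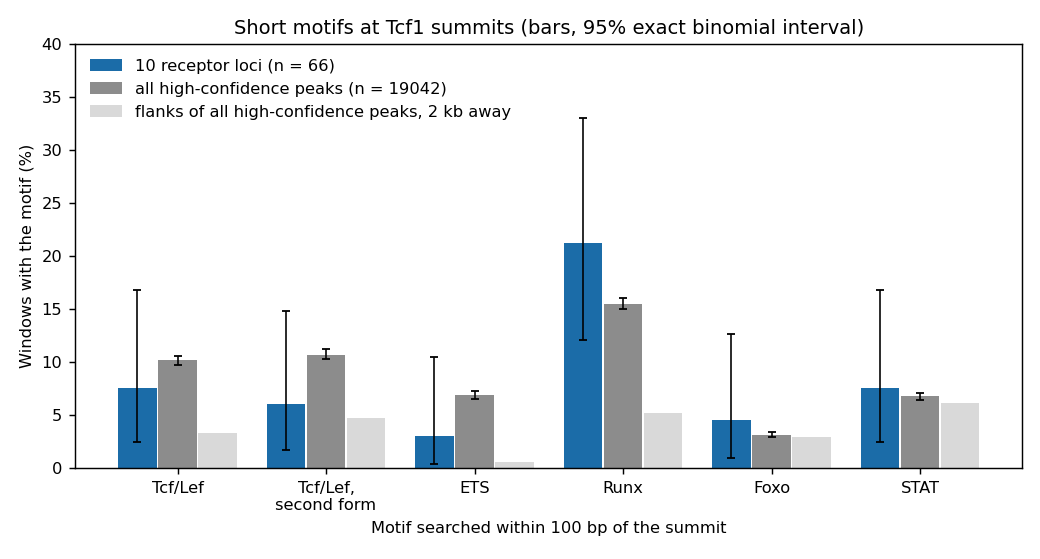
Share of windows (y axis, percent, with 95% exact binomial intervals) that hold each of 6 motifs within 100 bp of the summit (x axis), for 66 peaks at the receptor loci, all 19042 high-confidence peaks, and windows 2 kb from the latter. For each motif the interval of the receptor loci includes the share of all peaks, and the Runx core has the tallest bar (21.2%).

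None of the 6 motifs was found in 39 of the 66 member peaks (59.1%, 46.3 to 71.0), beside 56.6% of all high-confidence peaks. Of the 11 member peaks of at least 20-fold, 4 held either Tcf/Lef form (36.4%, beside 38.1% of 1519 such peaks genome-wide) and 7 held none of the 6 motifs (63.6%, 30.8 to 89.1, beside 36.8%), an interval that includes the genome-wide share. The 7 included the strongest peaks of Il2rb, Il6ra, Il6st and Il2ra, printed above, and the upstream peak of Il21r. With the shorter string TCAAAG, which was chosen after these sequences were seen, 6 of the 11 (54.5%, 23.4 to 83.3) had a match, beside 45.0% genome-wide. A string of 6 letters is common, and it was also found in 5 of the 22 windows 2 kb away from these 11 summits (22.7%) and in 15.2% of those beside all peaks of at least 20-fold.

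Of 38 other cytokine receptor genes, 30 (78.9%, 62.7 to 90.4) had a high-confidence peak in the window, beside the 66.5% given above, with a median of 3 peaks. An own start site was bound in 11 (28.9%, beside 32.8% of protein-coding genes) and a peak of at least 20-fold was present in 8 (21.1%, beside 12.2%). The highest values were 75.3 at Il20rb, a chain for the IL-20 family, and 67.4 at Ifnar1 and Ifngr2, interferon receptor chains whose windows share this peak. The peak pattern most like that of Il7r, by the number of peaks and the strongest fold enrichment on log2 scales over the 38 genes, was that of Il12rb2, the signalling chain of the IL-12 receptor, with 7 peaks, a strongest peak of 45.8-fold and a distance of 0.0949. Il1rl1 and Il18rap followed at 0.411, and their windows hold the 62.9-fold peak of Il18r1. The 8 genes without a high-confidence peak were Il1r2, Lepr, Il22ra1, Osmr, Lifr, Csf2rb, Il13ra1 and Il13ra2.

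Among the genes for the ligands, a high-confidence peak was found for 3 of 7 (42.9%, 9.90 to 81.6, which includes the 66.5% of all protein-coding genes), with 4 peaks at Il18, 2 at Il21 and 1 at Il2, and none for Il7, Il15, Il4 or Il6, and no ligand gene had one at its start site. Il21, a cytokine made mainly by CD4+ helper cells, had a peak of 36.8-fold. The Janus kinases, which carry the signal of most of these receptors, had peaks at 4 of 4 genes (interval 39.8% to 100%, which also includes 66.5%). Jak1 had 17 peaks and a strongest value of 46.9, the highest number of peaks among all genes listed here, while Jak3, the partner of the common gamma chain, had 5 peaks of up to 9.82-fold. Tyk2 and Jak2 had 4 peaks each, with strongest values of 7.79 and 5.30.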

How the data were processed

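Per the submitters' processing notes, the authors checked reads with FastQC and aligned them to mm9 with Bowtie2 2.2.5. They called peaks with MACS2 2.1.1.20160309 (per the file header), keeping 1 fragment per position, taking WT as treatment and Tcf1-deficient as control. The WT library held 46428124 fragments (36938606 kept, 79.6%) and the control 36118114 (27625250 kept, 76.5%). The deposited pileup is a signal, the unscaled WT fragment coverage at the summit. The deposited fold enrichment is a ratio with a pseudocount of 1, and the deposited −log10 p-value and −log10 q-value compare the pileup with the control level, that is, 1 library with another.

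Members were found with the NCBIM37 genome, which is mm9, and GENCODE vM1, in windows of 50 kb, with promoters of 1 kb on each side of any annotated start site and introns numbered in the longest transcript. The control level was computed as (pileup + 1)/fold enrichment − 1. Exact Poisson intervals of the pileup were carried to the fold enrichment with the control level held fixed. Python 3.11.15, numpy 2.4.6, pandas 2.3.3 and scipy 1.17.1 were used, and the steps were checked on simulated data. No test between groups was made, since each group has 1 library. The receptor genes, the lists of other genes and the motifs were chosen with earlier results of these data known. All 10 receptor genes were named, with the strongest peaks and every peak at an own start site, the genes of each list without a peak, the 3 other receptors of highest fold enrichment and the 3 nearest to Il7r. Genes outside these, such as Jak1, and the peaks next to the window borders were named after their values were seen. Alternatives varied the fold minimum, the q limit, the window, merging of peaks, promoter width, neighbour distance, the motif window and letters, and the control level.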

Additional observations from a re-analysis of the deposited data

How the results depend on the processing

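In all, 10 results were recomputed under alternatives, which gave 60 values, and 48 of the values stayed within the counting interval or within 1.5 times the reported count. With a fold minimum of 8 in place of 4, the receptor loci had 31 peaks, a median fold enrichment of 17.4, 2 genes with a peak at an own start site, 2.75 peaks per 100 kb and 61.3% of summits with another within 10 kb. With windows of 10 kb they had 39 peaks, 8.10 per 100 kb, and 89.7% nearest to the start of a receptor gene, a share that was 51.6% with windows of 100 kb. With a neighbour distance of 5 kb, 57.6% of summits had a neighbour. The share of all high-confidence summits was not computed for this distance or for a fold minimum of 8, so the 49.1% given above applies to neither. Without the pseudocount in the control level the share at the floor was 0%, by construction. With TCAAAG in place of ATCAAAG, an alternative chosen after seeing the data, the core share was 22.7%. The same letters were in 26.4% of all high-confidence peaks and in 17.4% of windows 2 kb away from the member summits. Of 29 values of the strongest peak of single genes, 22 held, of which 10 ranked peaks by pileup, which follows fold enrichment where the control is at its floor. Windows of 100 kb, added after seeing the data, gave 90.5 for Il6st, 70.7 for Il4ra, 30.4 for Il15ra and 17.3 for Il2rg. Windows of 10 kb gave 27.9 for Il7r, 7.79 for Il2rb and 9.55 for Il6st, and no peak for 1 gene, Il15ra. No paired analysis was possible because each group has 1 library, and for the same reason no replicate could be left out. Peaks near 4-fold rest on about 25 fragments, so their side of the minimum is within counting error.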
